A study of Mus musculus with 2 samples.

Results

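The genes of serine synthesis and one-carbon metabolism were examined in donor T cells sorted from the spleens of mice with acute graft-versus-host disease (aGvHD), a disease in which transplanted T cells attack the tissues of the recipient. The set has 9 genes, taken by symbol out of 32285 genes listed in the count tables, and all 9 were detected in both libraries. They are Phgdh, Psat1 and Psph of serine synthesis, Shmt2, Mthfd2 and Mthfd1l of the mitochondrial folate pathway, and Shmt1, Mthfd1 and Tyms of the cytosolic folate pathway. The series consists of 2 scRNA-seq libraries, 1 from day +7 and 1 from day +14 after allogeneic hematopoietic cell transplantation (allo-HCT). In both, lethally irradiated BALB/c mice received T cell–depleted bone marrow and, per the labels, 200000 splenic naive T cells of the C57BL/6 strain, and the library names carry the label PBS. The legend of the sequencing experiment in the paper calls the donors WT and gives a larger number of T cells without calling them naive, so the dose and the naive state are uncertain. The paper's methods describe mice of 6 to 12 weeks of age. Living CD45+H2Kb+H2Kd-TCRβ+ cells were sorted, so donor T cells bearing the MHC class I molecule of the C57BL/6 strain were kept and cells of the BALB/c host were excluded. Cells were pooled from 5 spleens, so the mice cannot be told apart, and no library of syngeneic, untreated or resting T cells is part of the series. The sort is described for day +7 in the labels of both libraries, and the day of each was taken from its title.

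Cells make serine from an intermediate of glycolysis. Phgdh oxidizes phosphoglycerate, Psat1 transfers an amino group onto the product from glutamate, and Psph removes the phosphate. The serine hydroxymethyltransferases then split serine into glycine and a carbon unit carried on tetrahydrofolate, Shmt2 in mitochondria and Shmt1 mainly in the cytosol. Mthfd2 and Mthfd1l oxidize the mitochondrial unit and release it as formate, which Mthfd1 loads onto cytosolic folate for the synthesis of purines and thymidylate. Tyms uses such a unit to methylate dUMP to dTMP, a building block of DNA. Activated T cells are known to raise this pathway when they prepare to divide.

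After removal of barcodes with under 500 or over 7500 genes or over 15% mitochondrial unique molecular identifiers (UMIs), 7179 cells remained at day +7 and 7794 at day +14, with a median of 9210 and 8144 UMIs per cell. Gates were set on cells thinned to 4000 UMIs each, which left out 198 cells at day +7 and 969 at day +14 that were shallower. Of the rest, 6816 and 6739 barcodes carried at least 3 UMIs of Trac, Trbc1, Trbc2, Cd3d, Cd3e and Cd3g and more of these than of myeloid or erythroid genes, and they are called T cells here. The T cell genes summed to 5984 counts per 1000000 UMIs (CPM) in that gate at day +7 and 7550 CPM at day +14, the 8 myeloid genes to 72.5 and 55.8 CPM and the 6 erythroid genes to 11.3 and 5.23 CPM. A further 60 and 70 barcodes carried mainly myeloid genes, and 102 and 10 mainly erythroid genes. CD8 T cells, with Cd8a or Cd8b1 and no Cd4, numbered 5607 and 5552, and CD4 T cells, with Cd4 and neither Cd8 gene, numbered 323 and 410. The letters of 17 cell barcodes occurred in both libraries.

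Cells were assigned to phases with 18 S phase genes such as Mcm5 and Pcna and 18 mitotic genes such as Aurkb and Top2a, none of which is among the 9 genes. S phase cells had at least 5 thinned UMIs of the S phase genes and fewer of the mitotic genes, mitotic cells had at least 5 UMIs of the mitotic genes and no more of the S phase genes, and non-cycling cells had at most 1 UMI of each list. S phase cells made up 19.4% of T cells at day +7 (95% CI 18.5 to 20.4) and 27.6% at day +14 (26.5 to 28.6). Mitotic cells made up 38.7% (37.5 to 39.8) and 39.3% (38.2 to 40.5), and non-cycling cells 22.8% (21.8 to 23.8) and 15.9% (15 to 16.8). With gates on all UMIs, without thinning, the shallow cells were kept. Non-cycling cells then numbered 992 of 6954 T cells at day +7 and 1178 of 7618 at day +14. The lower non-cycling share at day +14 was not seen there, so it depends on the gating. Levels below are the UMIs of a gene in a gate per 1000000 UMIs of the same cells, so they are relative to the total RNA of those cells. There is 1 library per day, which allows no test between the days, and no P values are reported. All intervals, exact Poisson for levels, exact binomial for shares and conditional binomial for ratios, cover counting error only, and neither the differences between mice nor those between library preparations.

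The genes lie on 7 chromosomes of the mouse genome (mm10), and all are protein coding. Phgdh lies at chr3:98313170-98339990, Psat1 at chr19:15904678-15947337, Psph at chr5:129765558-129787449 and Tyms at chr5:30058202-30073617. Shmt2 lies at chr10:127517123-127522444, Mthfd2 at chr6:83305691-83325908, Mthfd1l at chr10:3973118-4167081, Shmt1 at chr11:60788104-60811718 and Mthfd1 at chr12:76255298-76319803. Mthfd1l and Mthfd1 are transcribed from the plus strand and the other 7 from the minus strand. Psph overlaps Cct6a, Shmt2 overlaps Ndufa4l2, Shmt1 overlaps Smcr8 and Mthfd1 overlaps Gm34868 and Gm47525 on the opposite strand. The last 300 bases of Phgdh transcripts matched 5 processed pseudogenes at 97% identity or more, and those of Tyms matched 1, whereas the other 7 genes had no such match. How the counting dealt with such copies or with overlapping genes is not given in the sources used here, and the levels are uncertain to that extent.

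The stretch upstream of the start site is shown for 4 of the genes, since 8 of the 9 genes were higher in S phase than in non-cycling cells (below) and these 4 have an upstream stretch free of annotated exons. Each line gives the 250 bases before the RefSeq start site on the strand of the gene (GRCm38.p6, the assembly also called mm10), with matches to CCAAT, bound by the factor NF-Y, or to CACGTG, an E-box bound by Myc and related factors, in capitals. The stretches lie at chr5:30073626-30073875 for Tyms, chr19:15925060-15925309 for Psat1, chr10:127522445-127522694 for Shmt2 and chr10:3972825-3973074 for Mthfd1l. That of Psat1 lies inside the span of the gene given above, so it is upstream of this start site but not of the whole gene. Another start site is listed for Psat1 and is not shown. Its 250 bases, at chr19:15924623-15924872, held neither CCAAT nor CACGTG.
Tyms: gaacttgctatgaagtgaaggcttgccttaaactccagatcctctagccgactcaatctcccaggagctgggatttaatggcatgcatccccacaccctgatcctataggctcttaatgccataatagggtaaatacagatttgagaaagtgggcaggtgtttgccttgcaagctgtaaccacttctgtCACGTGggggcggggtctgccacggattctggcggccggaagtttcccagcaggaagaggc
Psat1: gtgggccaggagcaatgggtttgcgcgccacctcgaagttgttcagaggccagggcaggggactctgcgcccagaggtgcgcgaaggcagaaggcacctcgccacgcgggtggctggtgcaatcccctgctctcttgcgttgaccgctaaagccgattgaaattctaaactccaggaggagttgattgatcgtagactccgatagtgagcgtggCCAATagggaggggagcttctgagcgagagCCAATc
Shmt2: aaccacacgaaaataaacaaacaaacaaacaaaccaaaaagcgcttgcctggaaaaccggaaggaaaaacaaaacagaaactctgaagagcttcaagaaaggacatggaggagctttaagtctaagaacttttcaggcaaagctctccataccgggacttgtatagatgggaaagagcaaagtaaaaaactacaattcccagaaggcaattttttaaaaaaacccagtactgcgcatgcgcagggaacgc
Mthfd1l: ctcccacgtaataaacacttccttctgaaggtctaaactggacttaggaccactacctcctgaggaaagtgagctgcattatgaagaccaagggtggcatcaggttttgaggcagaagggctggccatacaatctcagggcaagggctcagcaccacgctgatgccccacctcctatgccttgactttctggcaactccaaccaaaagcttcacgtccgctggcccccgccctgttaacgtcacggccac
CCAAT on either strand was found before the start of 6 of the 9 genes (Phgdh, Psat1, Psph, Mthfd2, Shmt1 and Mthfd1), against 33.8% of 32851 mouse promoters of the same length. The first listed start site of each gene was used for this count. All 250 bases lay in annotated exons for Psph and for Mthfd1, as did 49 for Shmt1, 21 for Phgdh and 2 for Mthfd2. The stretches of Mthfd2 and Shmt1, like that of Psat1, lie inside the spans of their genes. CACGTG was found before Tyms only, against 6.02% of promoters. Neither the E2F motif, spelled TTTGGCGC, TTTCCCGC, TTTCGCGC or TTTGCCGC, nor the ATF4 motif TGATGNAAT was present in these 250 bases of any of the 9 genes, and 1.86% and 0.816% of all promoters held them.

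The first comparison asked how the genes followed the cell cycle within each library, where the cells compared share mice, sort and sequencing run. In CD8 T cells, 8 of the 9 genes were more than 1.5-fold higher in S phase than in non-cycling cells in both libraries, and Psph was the exception. Across all genes at 10 CPM or more, 18.9% were higher by this measure at day +7 and 19.6% at day +14, and 10.0% and 12.1% were lower, whereas no gene of the set was lower. A gene was counted when the ratio of its levels, with 1 CPM added to each, passed 1.5-fold and the mean of both levels was at least 10 CPM. Shmt1 and Mthfd1 in both libraries, and Mthfd1l at day +7, were under 10 CPM in non-cycling cells. They reached that mean only through S phase cells, so their place in the count rests on the side where they were high. The same limit applies below wherever a gene was under 10 CPM on the lower side. The median log2 ratio of the 9 genes was 1.73 in either library, against 0.05 and 0.03 for all genes. S phase CD8 T cells also held more RNA, with a median of 13196 UMIs per cell at day +7 against 6556 in non-cycling cells, and 11133 against 5496 at day +14.

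**Figure D1:**
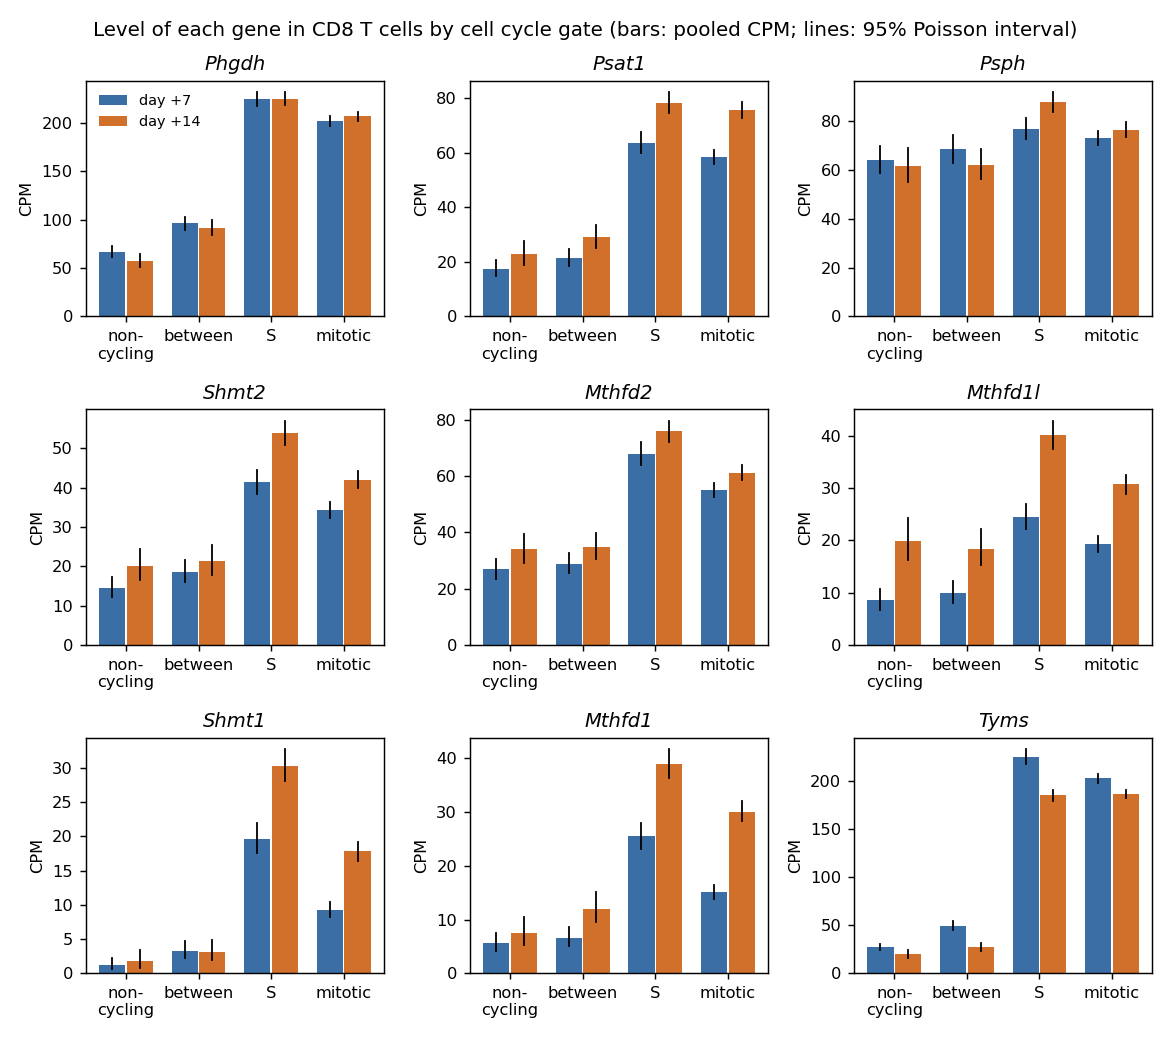
Level of each gene in CPM (vertical axis, from 0) in CD8 T cells by cell cycle gate (horizontal axis), for day +7 (blue) and day +14 (orange). Bars are pooled CPM and lines are 95% Poisson intervals; 8 of the genes were higher in the S and mitotic gates than in the non-cycling gate, whereas Psph ranged only from 61.7 to 87.7 CPM.

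The cytosolic genes differed most between the gates. Tyms was at 27.2 CPM in non-cycling and 225 CPM in S phase CD8 T cells at day +7, and at 20.1 and 185 CPM at day +14. The log2 ratios were 3.05 (95% CI 2.86 to 3.24) and 3.20 (2.91 to 3.50), above those of 98.0% and 98.5% of all genes. Shmt1, the cytosolic serine hydroxymethyltransferase, had few UMIs outside cycling cells, with 11 counted in 1202 non-cycling CD8 T cells at day +7 and 9 in 808 such cells at day +14. Its level was 1.29 CPM in non-cycling and 19.6 CPM in S phase cells at day +7, and 1.79 and 30.3 CPM at day +14, with log2 ratios of 3.93 (3.07 to 4.95) and 4.08 (3.15 to 5.21). Mthfd1, which joins formate to cytosolic folate, was at 5.61 and 25.5 CPM at day +7 and at 7.57 and 38.9 CPM at day +14. Its log2 ratios were 2.18 (1.75 to 2.64) and 2.36 (1.89 to 2.87).

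The first 2 enzymes of serine synthesis were also higher in S phase. Phgdh, the enzyme that commits phosphoglycerate to serine, was at 67.2 CPM in non-cycling and 225 CPM in S phase CD8 T cells at day +7, and at 57.6 and 225 CPM at day +14. The log2 ratios were 1.74 (1.61 to 1.87) and 1.97 (1.80 to 2.14). Psat1, the aminotransferase, was at 17.5 and 63.6 CPM at day +7 and at 22.9 and 78.3 CPM at day +14, with log2 ratios of 1.86 (1.61 to 2.11) and 1.77 (1.5 to 2.06). Psph, the phosphatase that completes the pathway, stood apart from both. It was at 64.2 and 76.9 CPM at day +7 and at 61.7 and 87.7 CPM at day +14, with log2 ratios of 0.26 (0.12 to 0.41) and 0.51 (0.33 to 0.68). In each library the interval of Psph lay below those of Phgdh and Psat1.

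The mitochondrial genes had lower ratios than Phgdh and Psat1 and higher ones than Psph. Counting error did not separate all of them from Phgdh and Psat1. At day +7 the intervals of Shmt2 and Mthfd1l overlapped those of both genes. At day +14 that of Shmt2 overlapped that of Psat1. Shmt2 was at 14.5 CPM in non-cycling and 41.3 CPM in S phase cells at day +7, and at 20.1 and 53.8 CPM at day +14, with log2 ratios of 1.51 (1.23 to 1.80) and 1.42 (1.13 to 1.73). Mthfd2, the mitochondrial dehydrogenase and cyclohydrolase, was at 27.0 and 67.9 CPM at day +7 and at 34.1 and 75.9 CPM at day +14, with log2 ratios of 1.33 (1.12 to 1.54) and 1.16 (0.93 to 1.39). Mthfd1l, which releases formate, was at 8.54 and 24.5 CPM at day +7 and at 19.9 and 40.1 CPM at day +14, with log2 ratios of 1.52 (1.16 to 1.90) and 1.01 (0.71 to 1.32). Summed over the 3 genes of each branch, the log2 ratio of S phase over non-cycling cells at day +7 was 2.98 (2.81 to 3.16) for cytosolic folate, 1.42 (1.27 to 1.57) for mitochondrial folate and 1.29 (1.21 to 1.38) for serine synthesis. At day +14 the sums gave 3.11 (2.87 to 3.35), 1.20 (1.04 to 1.35) and 1.46 (1.35 to 1.57), so the cytosolic branch led in both libraries. Tyms made up most of that branch, with 3742 of its 4491 UMIs in S phase cells at day +7 and 3903 of 5365 at day +14. The intervals of the other sums overlapped at day +7, so their order there could not be told.

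The share of cells with a UMI showed the same split after each cell was thinned to 4000 UMIs. Tyms was detected in 10.3% (95% CI 8.65 to 12.2) of non-cycling and 53.3% (50.4 to 56.3) of S phase CD8 T cells at day +7, and in 8.42% (6.59 to 10.5) and 45.3% (42.8 to 47.8) at day +14. Without thinning these shares were 16.2%, 83.2%, 11.3% and 76.0%. Barcodes with mainly myeloid genes gave 21.7% (12.1 to 34.2) at day +7 and 14.3% (7.07 to 24.7) at day +14 for Tyms, with a median depth of 11920 and 10535 UMIs, and the share in non-cycling cells was not above that in these barcodes. The myeloid barcodes carried the S phase genes at 1071 and 1072 CPM, against 173 and 203 CPM in non-cycling CD8 T cells, so they are no measure of free RNA, and the part of free RNA in the shares was not tested. Shmt1 was detected in 0.416% (0.135 to 0.968) of non-cycling and 6.50% (5.12 to 8.11) of S phase CD8 T cells at day +7, and in 0.743% (0.273 to 1.61) and 8.76% (7.42 to 10.3) at day +14. Without thinning these were 0.749%, 21.4%, 1.11% and 25.8%, and the myeloid barcodes gave 1.67% (0.0422 to 8.94) at day +7 and none of 70 (up to 5.13%) at day +14. Psph was detected in 21.8% (19.5 to 24.2) of non-cycling and 24.8% (22.3 to 27.5) of S phase CD8 T cells at day +7, intervals that overlap, and in 8.33% (2.76 to 18.4) of myeloid barcodes. Without thinning the Psph shares in the 2 gates were 35.9% and 62.5%, which differ with the depth of the cells.

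The genes also differed in how far their level held up from S phase to mitosis. Shmt1 was more than 1.5-fold lower in mitotic than in S phase CD8 T cells at both times and Mthfd1 at day +7, and no gene of the set was higher. Across all genes, 2.41% were lower and 3.18% higher at day +7, and 1.83% were lower and 3.40% higher at day +14. Shmt1 was at 9.30 CPM in mitotic against 19.6 CPM in S phase cells at day +7, a log2 ratio of -1.08 (-1.31 to -0.85) that lay above that of 0.4% of all genes. At day +14 it was at 17.8 against 30.3 CPM, a log2 ratio of -0.77 (-0.93 to -0.61). Mthfd1 was at 15.1 against 25.5 CPM at day +7 and at 30.1 against 38.9 CPM at day +14, with log2 ratios of -0.75 (-0.94 to -0.56) and -0.37 (-0.50 to -0.24). Tyms, which acts in the same compartment, was within 1.5-fold, at 203 against 225 CPM at day +7 and 186 against 185 CPM at day +14, with log2 ratios of -0.15 (-0.21 to -0.09) and 0.01 (-0.05 to 0.07). The 3 mitochondrial genes were lower in mitosis by log2 ratios between -0.39 and -0.27 over both days, each with an interval below 0. Phgdh, Psat1 and Psph lay between -0.20 and -0.05.

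In CD8 T cells the order of the 4 gates, counting as a class between the gates the cells that met neither limit, ran from non-cycling to between, mitotic and S phase in either library, except that at day +14 Mthfd1l was lower in between than in non-cycling cells and Tyms was at 186 CPM in mitotic and 185 CPM in S phase cells. Phgdh and Tyms differed already at the step from non-cycling to between cells at either time. Phgdh was at 96.3 CPM in between cells against 67.2 CPM in non-cycling cells at day +7 and at 91.6 against 57.6 CPM at day +14, with log2 ratios of 0.52 (0.36 to 0.67) and 0.67 (0.46 to 0.88). Tyms was at 49.1 against 27.2 CPM and at 27.6 against 20.1 CPM, with log2 ratios of 0.85 (0.62 to 1.09) and 0.46 (0.09 to 0.82). At low levels, Shmt1 differed at day +7, with 29 against 11 UMIs and a log2 ratio of 1.36 (0.32 to 2.51), and Mthfd1 at day +14, with 76 against 38 UMIs and a log2 ratio of 0.67 (0.09 to 1.27). Shmt2 had log2 ratios of 0.36 (0.01 to 0.71) and 0.09 (-0.29 to 0.48). For Psat1, Psph, Mthfd2 and Mthfd1l the intervals of the ratio held 0 at either time, among them Psat1 at 0.28 (-0.03 to 0.60) and 0.34 (-0.00 to 0.69) and Mthfd2 at 0.10 (-0.17 to 0.36) and 0.03 (-0.26 to 0.33).

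A finer view came from the summed thinned UMIs of all 36 cell cycle genes in each T cell, a grouping chosen after the data were seen. Phgdh was flat at 62.2 and 62.6 CPM in cells with 0 and 1 such UMIs at day +7 and at 82.5 CPM with 2 to 4. It reached 158 CPM with 5 to 9, 222 CPM with 10 to 19 and 211 CPM with 20 or more. At day +14 the corresponding levels of Phgdh were 51.6, 52.6, 69.9, 145, 226 and 214 CPM, so Phgdh was level over the top 2 groups. Psat1 and Tyms did not level off, with 56.3 and 67.4 CPM for Psat1 and 191 and 247 CPM for Tyms in the top 2 groups at day +7, and 72.4 and 82.1 CPM and 163 and 217 CPM at day +14. Shmt1 was highest in the group with 10 to 19 UMIs, at 15 CPM (13.4 to 16.7) at day +7 and 26.3 CPM (24.1 to 28.6) at day +14, against 12.5 CPM (11.4 to 13.8) and 22.0 CPM (20.6 to 23.6) with 20 or more. Psph moved between 57.6 and 81.7 CPM at day +7 and between 57.7 and 86.3 CPM at day +14, and was also highest in that group.

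**Figure D2:**
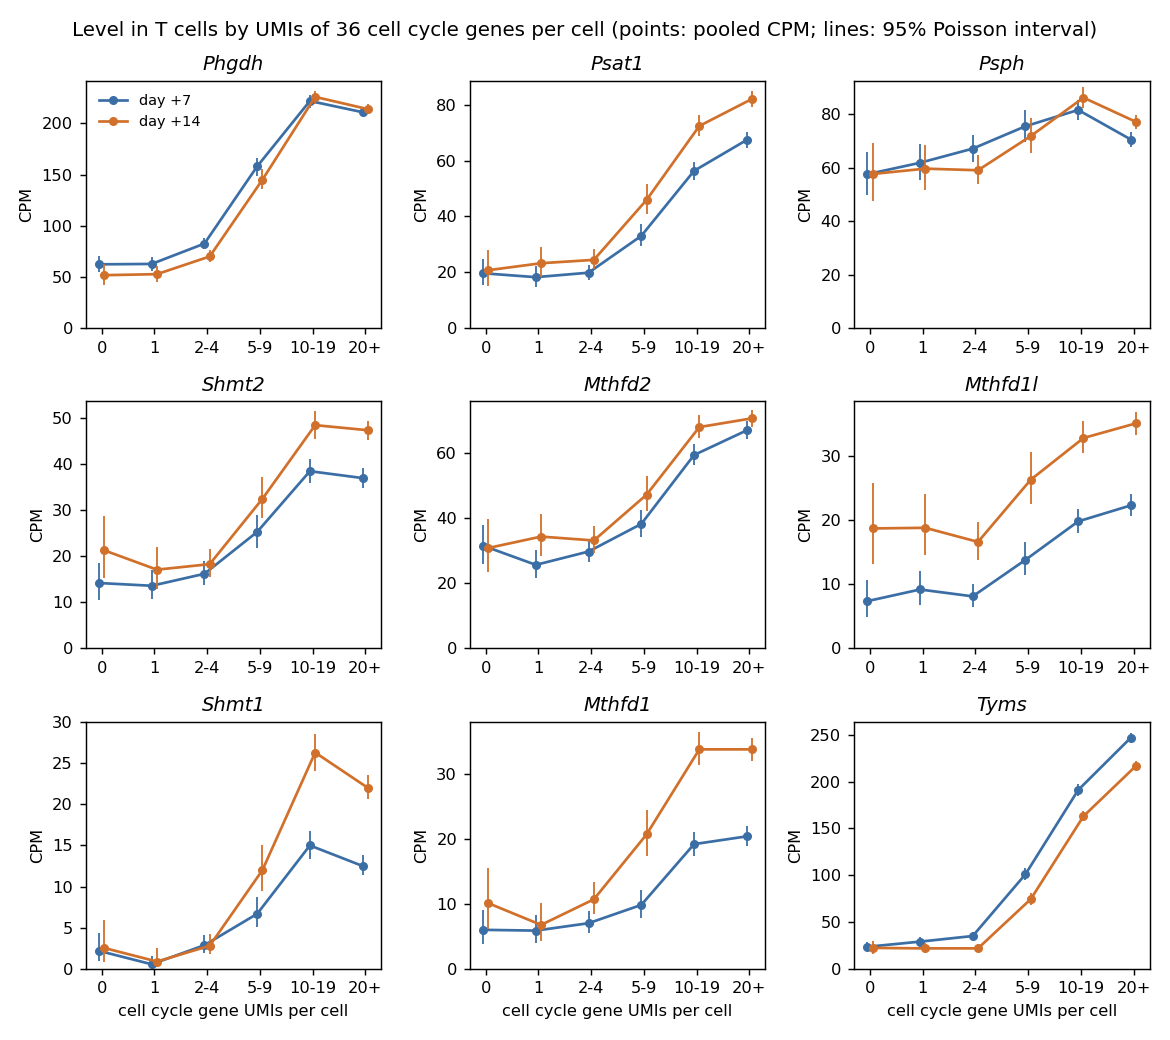
Level of each gene in CPM (vertical axis, from 0) in T cells grouped by their summed UMIs of 36 cell cycle genes after thinning (horizontal axis), for day +7 (blue) and day +14 (orange), with 95% Poisson intervals. Phgdh levels off in the top 2 groups, Tyms goes on to 247 and 217 CPM, and the 2 days run apart for Mthfd1l over the whole range.

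The next comparison was between the 2 times. In T cells, Mthfd1l, Shmt1 and Mthfd1 were more than 1.5-fold higher in the day +14 library when scaled by the total UMIs of the cells, and the other 6 genes were within 1.5-fold. Across all genes 8.39% were higher by this measure and 2.71% were lower, and the median gene had a log2 ratio of 0.19, so the ratios have to be read against that shift. Scaling by the median ratio over genes, in place of the total, lowered all log2 ratios in T cells by 0.22. Of all genes past 1.5-fold in T cells, 75.6% were higher at day +14 with the total and 38.6% with the median ratio.

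In T cells the level of Mthfd1l was 17.5 CPM in the earlier and 30.9 CPM in the later library, a log2 ratio of 0.82 (95% CI 0.73 to 0.92). Shmt1 was at 10.1 and 19.2 CPM, a log2 ratio of 0.92 (0.80 to 1.04), and Mthfd1 at 15.8 and 28.8 CPM, a log2 ratio of 0.87 (0.77 to 0.97). These ratios lay above those of 96.5%, 97.2% and 97.1% of all genes, and with 1 CPM added and the scaling by the median ratio they were 0.57, 0.63 and 0.61, with Mthfd1l then just under 1.5-fold. Psat1 was at 49.6 and 67.3 CPM and Shmt2 at 31.0 and 41.8 CPM, with log2 ratios of 0.44 (0.38 to 0.50) and 0.43 (0.35 to 0.50). The other genes lay close to or below the median gene, and for Phgdh, Psph and Mthfd2 the sign of the difference depends on the scaling. Phgdh was at 176 and 187 CPM, Psph at 72.5 and 76.2 CPM and Mthfd2 at 53.2 and 62.2 CPM, with log2 ratios of 0.09, 0.07 and 0.22 by the total, and of -0.13, -0.15 and -0.00 by the median ratio. Tyms was at 166 and 160 CPM, with a log2 ratio of -0.05 (-0.09 to -0.02) by the total and -0.28 by the median ratio. The sums over branches gave log2 ratios of 0.15 (0.13 to 0.18) for serine synthesis, 0.41 (0.37 to 0.45) for mitochondrial folate and 0.12 (0.08 to 0.15) for cytosolic folate, where Tyms makes up most of the UMIs. By the median ratio these were -0.07, 0.18 and -0.11, so only the mitochondrial sum kept its sign.

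**Figure D3:**
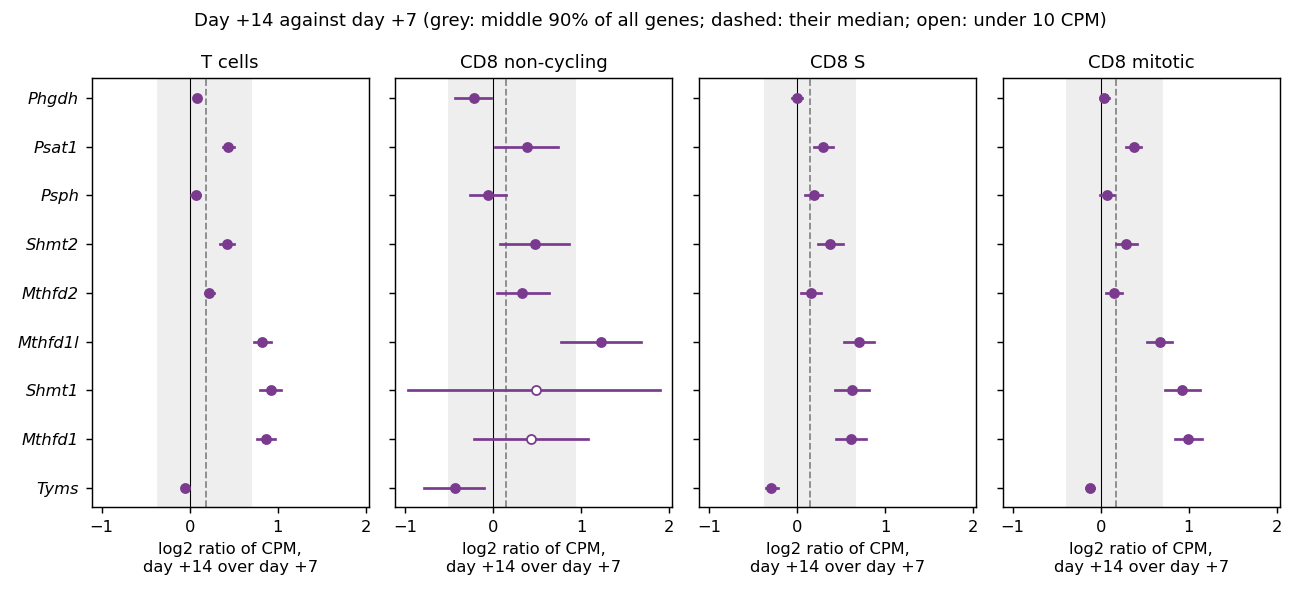
Log2 ratio of CPM at day +14 over day +7 (horizontal axis) for each gene (rows) in all T cells and in 3 gates of CD8 T cells, with 95% counting intervals. The grey band holds the middle 90% of all genes and the dashed line is their median (0.19 in T cells); Mthfd1l lies above the band in T cells at 0.82, and open symbols are genes under 10 CPM.

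In the thinned gates the libraries differed in their shares of S phase and non-cycling cells, so the times were also compared within gates. In CD8 T cells as a whole the same 3 genes were past 1.5-fold, against 8.45% of all genes higher and 2.78% lower. In mitotic T cells these 3 were again past it, against 8.08% higher and 2.72% lower. In S phase T cells Mthfd1l and Shmt1 were, against 6.65% higher and 2.51% lower, and Mthfd1 was at 1.44-fold. In non-cycling T cells Mthfd1l alone was, against 15.3% higher and 3.66% lower, with Shmt1 and Mthfd1 there under 10 CPM. In CD4 T cells Shmt2 and Mthfd1l were, against 14.3% higher and 3.23% lower, with Shmt1 under 10 CPM at a mean of both times. The CD4 count of 2 fell to 1 or 0 under 5 of 11 alternatives, including 2-fold, and from thinned UMIs the log2 ratio of Shmt2 in CD4 T cells was -0.02, with 6.19% (3.82 to 9.40) of cells positive at day +7 and 5.85% (3.79 to 8.58) at day +14. With the scaling by the median ratio, Mthfd1l fell under 1.5-fold in CD8 T cells (a log2 ratio of 0.56), S phase cells (0.54), mitotic cells (0.46) and CD4 T cells (0.53) and stayed past it in non-cycling cells (0.89), and Shmt1 fell under it in S phase cells (0.47). No gene of the set was past 1.5-fold lower in any of these gates.

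With scaling by the total, Mthfd1l was past 1.5-fold between the times in each phase of CD8 T cells. Among non-cycling CD8 T cells its level was 8.54 CPM in the earlier and 19.9 CPM in the later library, a log2 ratio of 1.22 (95% CI 0.77 to 1.68), above 97.2% of all genes. Among S phase cells it was at 24.5 and 40.1 CPM, a log2 ratio of 0.71 (0.54 to 0.88), and among mitotic cells at 19.3 and 30.7 CPM, a log2 ratio of 0.67 (0.53 to 0.81). By the same scaling, Psat1, Shmt2 and Mthfd2 were also higher at day +14 in all 3 gates with intervals above 0, by log2 ratios of 0.38, 0.47 and 0.33 in non-cycling cells, but within 1.5-fold. By the median ratio Mthfd2 was at -0.06 in all S phase T cells and at -0.06 in all mitotic T cells. Its sign in cycling cells therefore depends on the scaling. Shmt1 and Mthfd1 differed in the cycling cells. Shmt1 was at 19.6 and 30.3 CPM in S phase and 9.30 and 17.8 CPM in mitotic CD8 T cells, with log2 ratios of 0.63 (0.43 to 0.82) and 0.93 (0.73 to 1.13). Mthfd1 was at 25.5 and 38.9 CPM and at 15.1 and 30.1 CPM, with log2 ratios of 0.61 (0.44 to 0.78) and 0.99 (0.84 to 1.15). Among non-cycling CD8 T cells their log2 ratios were 0.48 (-0.97 to 1.89) and 0.43 (-0.22 to 1.08), so a difference was not detectable at this depth. Tyms lay below 0 in all 3 gates of CD8 T cells, at -0.44 (-0.79 to -0.10) in non-cycling, -0.29 (-0.35 to -0.22) in S phase and -0.12 (-0.17 to -0.07) in mitotic cells. Phgdh in S phase CD8 T cells was at 225 CPM at either time, a log2 ratio of 0.00 (-0.06 to 0.06). With equal weight for the non-cycling, S and mitotic gates, a calculation added after the data were seen, the log2 ratios in T cells were 0.76 for Mthfd1l, 0.68 for Shmt1, 0.63 for Mthfd1 and -0.19 for Tyms.

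CD4 T cells were compared with CD8 T cells of the same library. Of the 9 genes 8 had a log2 ratio below 0 at either time, as little as -0.01 for Mthfd1 at day +7, and Mthfd2 was the exception. Across all genes at 10 CPM or more, 3441 of 6630 lay above 0 at day +7 and 3690 of 7167 at day +14. The intervals of Psph and Mthfd1 at day +7 and of Tyms at day +14 held 0. CD4 T cells also carried fewer S phase transcripts, with the S phase genes summing to 1070 CPM in CD4 and 1454 CPM in CD8 T cells at day +7, and to 1359 and 1871 CPM at day +14. Over all phases, Phgdh and Shmt2 were past 1.5-fold lower in CD4 T cells at day +7, with Shmt1 under 10 CPM, against 2.85% of all genes lower and 5.02% higher. At day +14 Phgdh, Psat1, Shmt2, Mthfd1l and Shmt1 were, against 2.87% lower and 6.61% higher, and no gene of the set was past 1.5-fold higher at either time. Phgdh was at 114 CPM in CD4 and 177 CPM in CD8 T cells at day +7, and at 120 and 191 CPM at day +14, with log2 ratios of -0.63 (95% CI -0.79 to -0.48) and -0.66 (-0.81 to -0.52). Shmt2 was at 16.6 and 31.5 CPM and at 27.3 and 42.1 CPM, with log2 ratios of -0.93 (-1.36 to -0.52) and -0.62 (-0.94 to -0.33). Mthfd2, which acts next to Shmt2 in mitochondria, was level, at 51.6 and 51.3 CPM at day +7 and 63.2 and 61.3 CPM at day +14, with log2 ratios of 0.01 (-0.23 to 0.24) and 0.04 (-0.16 to 0.24). For Shmt2 and Mthfd2 the intervals did not overlap at either time.

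**Figure D4:**
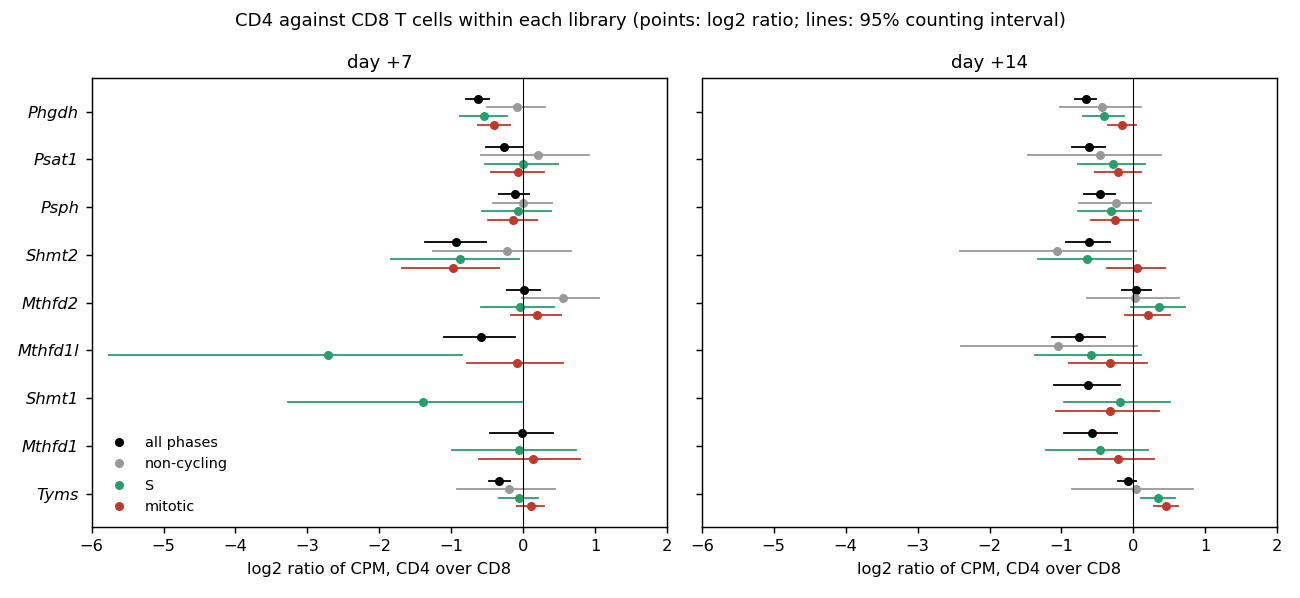
Log2 ratio of CPM in CD4 over CD8 T cells (horizontal axis) for each gene (rows) over all phases (black) and within the non-cycling (grey), S (green) and mitotic (red) gates, at day +7 (left) and day +14 (right), with 95% counting intervals; genes under 10 CPM are left out. Phgdh lies at -0.63 and -0.66 over all phases and Mthfd2 at 0.01 and 0.04, and the intervals within phases are wide, with Mthfd2 at up to 0.55 in non-cycling cells at day +7.

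Within phases the CD4 gates held only 48 to 127 cells, and few ratios could be told from 0. Among non-cycling cells at day +7 none of the 6 genes at 10 CPM or more was past 1.5-fold, with 14.4% of all genes past it in either direction, and Mthfd1, under that level, was at 9.02 CPM from 8 UMIs in CD4 and 5.61 CPM in CD8 T cells. In the same gate Shmt2 and Mthfd1l were past 1.5-fold lower in CD4 T cells at day +14, with 19.5% of all genes past it in either direction. Each rests on 7 UMIs in CD4 T cells, with log2 ratios of -1.06 (-2.41 to 0.03) and -1.05 (-2.40 to 0.05). Both intervals hold 0, and both genes were at 9.64 CPM in CD4 T cells. Among S phase cells Shmt2, Mthfd1l and Shmt1 were lower at day +7 and Shmt2 at day +14. There 20.3% and 15.4% of all genes were past 1.5-fold in either direction. Among mitotic cells Shmt2 was lower at day +7 and no gene at day +14, with 8.98% and 9.75% of all genes past it in either direction. These counts are read against backgrounds that are themselves wide with so few cells. Phgdh was at 154 CPM in CD4 and 225 CPM in CD8 S phase cells at day +7, a log2 ratio of -0.55 (-0.88 to -0.23), and at day +14 it was at 170 and 225 CPM, with a log2 ratio of -0.41 (-0.70 to -0.13). Among mitotic cells its log2 ratios were -0.40 (-0.63 to -0.19) and -0.16 (-0.35 to 0.03), and among non-cycling cells -0.09 (-0.51 to 0.31) and -0.43 (-1.02 to 0.11). Mthfd1l in S phase at day +7 rests on 2 UMIs in CD4 T cells, with a log2 ratio of -2.71 (-5.76 to -0.85). Shmt1 in that gate rests on 4 UMIs, with a log2 ratio of -1.39 (-3.27 to -0.02). Both were under 10 CPM in CD4 T cells there, at 3.75 and 7.49 CPM, and reached a mean of 10 CPM only through CD8 T cells. Tyms was higher in CD4 than in CD8 T cells in S phase and mitosis at day +14, at 234 against 185 CPM and 256 against 186 CPM, with log2 ratios of 0.34 (0.10 to 0.58) and 0.46 (0.29 to 0.62), both under 1.5-fold.

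Genes around the 9 were taken from lists of the same pathways. Genes of nucleotide synthesis, of which only some encode enzymes that use the carbon units, moved with the cell cycle. Of 12 listed genes 10 were measured at 10 CPM or more in the CD8 gates. All 10 were past 1.5-fold higher in S phase than in non-cycling CD8 T cells at either time, against 18.9% and 19.6% of all genes. One of them, Rrm2, helps define the gate, and the median log2 ratio of the other 9 was 1.66 at day +7 and 1.56 at day +14. Dut, which makes the dUMP that Tyms methylates, was at 143 and 840 CPM at day +7 and at 192 and 859 CPM at day +14. Dtymk, the kinase that takes dTMP further, was at 46.1 and 148 CPM at day +7 and at 57.2 and 170 CPM at day +14. Ppat and Gart, of purine synthesis, were at 14.6 and 51.1 CPM and at 13.0 and 40.1 CPM at day +7, and at 20.7 and 69.8 CPM and at 17.9 and 54.2 CPM at day +14. Rrm2, a subunit of ribonucleotide reductase, was at 3.51 and 265 CPM at day +7, but its level chose the cells of the S phase gate. Between the times, Ppat alone of this list was past 1.5-fold, with 30.0 CPM in T cells of the earlier and 46.3 CPM in those of the later library, a log2 ratio of 0.61 with the total and 0.39, under 1.5-fold, with the median ratio. With the total, 8.39% of all genes were higher and 2.71% lower in T cells.

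The other genes of the folate and glycine cycle were divided. Of 20 listed genes 10 were measured at 10 CPM or more in the CD8 gates in each library, 4 were past 1.5-fold higher in S phase and 1 lower, against 18.9% and 19.6% of all genes higher and 10.0% and 12.1% lower. The median log2 ratio of the list was 0.22 at day +7 and 0.25 at day +14, against 0.05 and 0.03 for all genes. Sfxn1, a carrier of serine into mitochondria, was at 57.3 CPM in non-cycling and 119 CPM in S phase CD8 T cells at day +7, and at 56.4 and 143 CPM at day +14. Gcsh, a part of the glycine cleavage system, was at 16.1 and 29.3 CPM and at 16.1 and 40.2 CPM. Ggh, a lysosomal hydrolase of folates, was at 48.9 and 48.4 CPM and at 52.8 and 40.6 CPM. Between the times, none of the 9 genes of the list measured in T cells was past 1.5-fold, against 8.39% of all genes higher and 2.71% lower. Beside Sfxn1 and Gcsh, the genes higher in S phase included Gldc at day +7 and Slc19a1 at day +14, and Sfxn3 was the lower one, all 3 named after their values were seen.

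Genes of the methionine cycle and polyamine synthesis, which draw on carbon units and on S-adenosylmethionine, were partly higher in S phase. Of 14 listed genes 6 were measured at day +7 and 7 at day +14, of which 4 and 5 were past 1.5-fold higher, against 18.9% and 19.6% of all genes, with none lower, and the median log2 ratio was 0.60 and 0.98. Beside Mat2a and Srm these were Ahcyl1 and Mtap at day +7 and Mtap, Amd1 and Sms at day +14, of which Ahcyl1, Mtap and Amd1 were named after their values were seen. Mat2a, which makes S-adenosylmethionine, was at 55.3 and 85.4 CPM at day +7 and at 68.1 and 135 CPM at day +14, and it was the 1 gene of the list past 1.5-fold between the times, at 72.7 and 110 CPM in T cells, a log2 ratio of 0.60 that was 0.37 with the median ratio. Between the times, 8.39% of all genes were higher in T cells with the total and 2.71% lower. Srm, spermidine synthase, was at 12.6 and 44.6 CPM at day +7 and at 12.5 and 66.4 CPM at day +14. Sms, spermine synthase, was at 164 and 240 CPM and at 112 and 170 CPM in the 2 gates, and at 226 CPM at day +7 against 167 CPM at day +14 in T cells, within 1.5-fold with the total and past it with the median ratio, at -0.66. Mat2b, the regulatory partner of Mat2a, was at 95.8 and 71.4 CPM and at 120 and 86.9 CPM.

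Of 11 listed genes for the uptake and further use of serine and glycine, 7 were measured, and 1 was past 1.5-fold higher in S phase in each library, a share near the 18.9% and 19.6% of all genes. None was past it between the times in T cells, against 8.39% of all genes higher and 2.71% lower. The gene higher in S phase was Gars, the glycyl-tRNA synthetase, named after its values were seen. Slc38a2 and Slc38a1, carriers of neutral amino acids, were at 136 and 128 CPM and at 75.4 and 91.0 CPM in the 2 gates at day +7. Slc1a5, another such carrier, was at 42.5 CPM in T cells of the earlier and 62.2 CPM in those of the later library. Sars, the seryl-tRNA synthetase, was at 140 and 123 CPM.

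Genes downstream of ATF4, a factor known to drive Phgdh, Psat1, Shmt2 and Mthfd2 under amino acid shortage, were also listed. Of 16 listed genes 8 were measured at day +7 and 9 at day +14 in the CD8 gates, with 2 past 1.5-fold higher and 2 lower in S phase in each library and median log2 ratios of -0.11 and 0.20. The share of higher genes is near the 18.9% and 19.6% of all genes. The share of lower genes is above the 10.0% and 12.1% of all genes, but rests on 2 genes in each library. Named after their values were seen, the higher genes were Slc7a5 and Aars at day +7 and Slc7a5 and Asns at day +14, and the lower ones Ddit3 and Ddit4. Atf4 itself was at 76.7 and 70.9 CPM in non-cycling and S phase CD8 T cells at day +7 and at 68.7 and 79.0 CPM at day +14. Ddit4, a stress-induced inhibitor of mTORC1, was lower in S phase, at 74.8 and 42.7 CPM and at 105 and 60.5 CPM. Asns, asparagine synthetase, was at 7.97 and 24.2 CPM at day +14, and at 3.39 and 14.7 CPM at day +7, where its mean was under 10 CPM. Slc3a2, the heavy chain of amino acid exchangers, was at 88.1 and 80.5 CPM at day +7. Between the times, 1 of 9 genes was past 1.5-fold, Eif4ebp1, a repressor of translation, with 17.5 CPM in the earlier and 11.2 CPM in the later library. Of all genes in T cells, 8.39% were higher and 2.71% lower.

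Myc, which is known to act on several of these genes, stood at 13.1 CPM in T cells of the earlier library and at 22.8 CPM in those of the later, a log2 ratio of 0.75 with 1 CPM added, and of 0.53 with the median ratio, under 1.5-fold. In S phase against non-cycling CD8 T cells it was at 16.3 against 12.6 CPM at day +7 and at 32.4 against 15.9 CPM at day +14, past 1.5-fold at day +14 only. Mxd4, an antagonist of Myc, was lower in S phase, at 24.2 against 81.6 CPM and at 31.8 against 139 CPM. Max, the partner of both, was at 36.5 against 45.3 CPM and at 51.7 against 66.9 CPM. Across all genes, 18.9% and 19.6% were past 1.5-fold higher in S phase and 10.0% and 12.1% lower. Between the times in T cells, 8.39% were higher with the total and 2.71% lower.

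Finally, the genes whose pattern was most like that of each of the 9 were sought over 11 groups of cells, split by time, CD4 or CD8 and phase, with at least 50 cells each, among 2541 genes at a mean of 50 CPM or more. These groups share libraries, and the correlation of log2 levels is a description across them. Tyms was most like Ptma, Ran and Rrm2 (Pearson's r of 0.997, 0.994 and 0.993), of which Rrm2 helps define S phase. Shmt1 was most like Atp5a1, Slbp and Gspt1 (0.990, 0.989 and 0.989) and Mthfd1 most like Eif4a1, Snu13 and Ncl (0.985, 0.983 and 0.981). Phgdh was most like Lsm6, Snrpe and Dpy30 (0.991, 0.991 and 0.987), and Psat1 most like Smc3, Nudt5 and Snrpa1 (0.993, 0.992 and 0.991). Psph had the weakest likeness, with Glrx3, Ebna1bp2 and Me2 at 0.931, 0.930 and 0.928. Mthfd2 was most like Fh1, Uqcrb and Cdk4 (0.986, 0.983 and 0.977), Shmt2 most like Cct7, Hmgn1 and Fkbp3 (0.964, 0.961 and 0.956), and Mthfd1l most like Rpa1, Dnajc9 and Clns1a (0.959, 0.957 and 0.956).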

How the data were processed

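The authors processed the reads of the 2 libraries with Cell Ranger 6.1.2 against mm10 and deposited raw UMI counts per gene for each barcode that Cell Ranger called a cell. From these counts, cells with 500 to 7500 genes and at most 15% mitochondrial UMIs were kept, as in the paper's methods (7179 of 7355 barcodes at day +7 and 7794 of 8043 at day +14). For each gate, the UMIs of its cells were added up, scaled to CPM and compared as ratios. Totals were 86745047 and 83808218 UMIs in kept cells. Scrublet in scanpy 1.11.5 marked 0 cells in either library and so had not worked, and doublets were kept. Calculations used Python 3.11.15, numpy 2.4.6, scipy 1.17.1 and pandas 2.3.3, were tested on simulated data, and took positions from GENCODE M21.

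All 9 genes are named. From each pathway list, the 3 genes with the most UMIs and the 2 with the largest log2 ratio between the times in T cells are named, with exceptions stated, and 1 gene that the rule would name is not reported here. The 9 genes, the lists, the gates and the promoter motifs were chosen with earlier results of these data known. The alternatives were another scaling, other gates, thinned UMIs, the mean of per-cell CPM, a mitochondrial limit of 5%, phase minimums of 3 and 8 UMIs, removal of the highest Scrublet scores, no filter, a pseudocount of 0.1 CPM and a limit of 2-fold. Equal weighting of phases, the groups by cell cycle UMIs and the ratios of between over non-cycling cells were added after the data were seen.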

Additional observations from a re-analysis of the deposited data

How the results depend on the processing

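No paired analysis was possible because each time has 1 library. The count of genes past 1.5-fold between S phase and non-cycling CD8 T cells stayed at 8 or within 1.5 times of it under all 11 alternatives, and the counts between mitotic and S phase cells did so except at 2-fold, where they were 1 and 0. Log2 ratios of the times in T cells for the sums of serine synthesis, mitochondrial folate and cytosolic folate were -0.07, 0.18 and -0.11 with scaling by the median ratio, and 0.06, 0.34 and -0.02 with equal weight for each phase. The serine synthesis sum was 0.12 with gates on all UMIs and 0.12 from thinned UMIs. The cytosolic sum was 0.18 from thinned UMIs and 0.17 as the mean of per-cell CPM, which gave 0.47 for the mitochondrial sum. No gene at 10 CPM or more was past 2-fold between the times in T cells, CD4, CD8, S phase or mitotic cells, a count of 0 in each, and Shmt1 in CD4 T cells, under that level, was at 2.71-fold. The count in CD4 T cells between the times, 2 as reported, was 1 with the median ratio, 1 from thinned UMIs, 0 with gates on all UMIs and 0 by the mean of per-cell CPM, and that in S phase was 0 with the median ratio and 1 with gates on all UMIs.

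The counts of CD4 against CD8 T cells were the least stable. With gates on all UMIs they were 0 and 2 over all phases at day +7 and day +14, 1 in non-cycling cells at day +7, 0 and 0 in S phase, and 0 and 1 in mitosis. Thinned UMIs gave 3 over all phases at day +14, 2 in non-cycling cells at day +7 and 4 in S phase at day +14. The mean of per-cell CPM gave 1 over all phases at day +7, and 2 in S phase and 1 in mitosis at day +14. In S phase at day +14 the count was 4 and 2 with phase minimums of 3 and 8 UMIs and 2 without the highest Scrublet scores. Without the filter on low values it was 1 in non-cycling and 2 in mitotic cells at day +7. At 2-fold it was 0 over all phases at either time, in non-cycling and S phase cells at day +14 and in mitotic cells at day +7. Of 81 ratios that involve CD4 T cells 37 changed sign under at least 1 alternative, and so did 2 of the 16 that were past 1.5-fold, Shmt1 in S phase against CD8 at day +7, at 0.10 with gates on all UMIs, and Shmt2 between the times in CD4 T cells, at -0.02 from thinned UMIs. The causes were not tested. Depth limits Shmt1 and Mthfd1 in non-cycling cells and all genes in CD4 phase gates.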

Other observations

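The sort also held barcodes that were not T cells, and several of the genes stood at other levels there. In the 102 barcodes with mainly erythroid genes at day +7, with a median of 36826 UMIs, Mthfd1 was at 189 CPM (95% CI 175 to 203) against 15.8 CPM in T cells of that library. Shmt2 was at 96.7 CPM (86.8 to 107) against 31.0 CPM, and Mthfd1l at 40.6 CPM (34.3 to 47.8) against 17.5 CPM. Psat1 was at 84.6 CPM (75.4 to 94.7) and Phgdh at 213 CPM (198 to 229), against 49.6 and 176 CPM. Psph was lower, at 35.9 CPM (29.9 to 42.7) against 72.5 CPM, and Shmt1 was at 10.9 CPM (7.77 to 14.9) against 10.1 CPM. Tyms was at 133 CPM (122 to 146) against 166 CPM, and Mthfd2 at 53 CPM (45.7 to 61.1) against 53.2 CPM. Only 10 such barcodes were found at day +14, where Mthfd1 was at 177 CPM (114 to 264) and Psph at 36.9 CPM (12 to 86.1).

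In the 60 and 70 barcodes with mainly myeloid genes, Phgdh was at 76.1 CPM (59.2 to 96.3) and 87.6 CPM (69.9 to 108), and Psph at 22.1 CPM (13.5 to 34.1) and 17.5 CPM (10.2 to 28.0). Tyms was at 123 CPM (102 to 149) and 94.8 CPM (76.4 to 116), and the S phase genes summed to 1071 and 1072 CPM in these barcodes. These values were looked at after the data were seen. Doublets with T cells can lie among the barcodes, and their part was not tested.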
